A study of Homo sapiens with 9 samples.

Results

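The genes described here encode enzymes that take methyl groups off lysine 4 of histone H3 (H3K4) and the deacetylases and scaffold that work with them. They are 8 of the 20163 protein-coding genes annotated by GENCODE on hg19: KDM1A, KDM1B, KDM5A, KDM5B, KDM5C, RCOR1, HDAC1 and HDAC2. They were chosen by name, for the function of their products, and each was followed through the H3K4me3 peaks listed no more than 1 kb from an annotated start, with 5 kb beside it. The question was how the promoters of this machinery were themselves marked with H3K4me3 when the m6A RNA methyltransferase was disrupted.

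H3K4 trimethylation marks the promoters of active genes and is laid down by SET-domain methyltransferases. It is taken off by the KDM5 family (KDM5A, KDM5B and KDM5C), dioxygenases that act on the tri- and dimethylated forms. KDM1A, also called LSD1, and its relative KDM1B are flavin-dependent oxidases that can act only on mono- and dimethylated H3K4. In blood cells KDM1A sits in the CoREST complex, where RCOR1 is the scaffold and HDAC1 and HDAC2 remove histone acetyl groups, and this complex is brought to DNA by the repressors GFI1 and GFI1B during erythroid and megakaryocytic development. HDAC1 and HDAC2 also serve in the SIN3 and NuRD complexes.

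H3K4me3 was mapped by CUT&RUN, in which a nuclease held at the mark by an antibody cuts out DNA for sequencing, in HEL cells, a human erythroleukemia line with erythroid and megakaryocytic traits. The 9 libraries were 3 of control cells (NTC) and 2 each of cells in which METTL3, METTL14 or WTAP, subunits of the m6A methyltransferase, had been knocked out with CRISPR (METTL3-KO, METTL14-KO and WTAP-KO). All groups were HEL cells grown in the same serum-containing medium with no drug treatment given in the labels. The study's methods describe lentiviral delivery of guide RNAs into HEL cells. Whether the libraries came from clones or from separate cultures is not given in the sources used here, so that p-values measure only the spread between these libraries.

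The authors called peaks separately in each library, and the value used for a gene is the largest signal among its peaks, in calibrated coverage units. The lists held 21724 to 21941 peaks in the NTC libraries, 9205 to 9369 in METTL3-KO, 3169 to 5286 in METTL14-KO and 3160 to 3673 in WTAP-KO, and depth is unknown. A peak lay within 1 kb of a start of 46.8% to 47.9% of protein-coding genes in NTC, 33.5% to 34.6% in METTL3-KO, 13.2% to 21.1% in METTL14-KO and 11.4% to 12.9% in WTAP-KO. Of 11 erythroid and megakaryocytic marker genes, 8 had a peak in all 3 NTC libraries and the other 3 in at least 1. Among markers of other cell types, PAX5 (B cell) and COL1A1 (fibroblast) had a peak in all 3 NTC libraries, and CD3E, MYOD1, ALB, NEUROD1 and CDH1 had none in any library. A lower signal can come from fewer cells with the mark or from less of the mark per cell, which cannot be told apart here. The widest peak in any list measured 2000 bp. Signal values rose in steps that differed between libraries, and a step was taken as the worth of a fragment. The lowest listed signal was assumed to span 2 coverage intervals. It then equals 12 to 14 fragments in NTC, 15 to 33 in METTL3-KO and 35 to 47 in METTL14-KO and WTAP-KO. Fragments were not counted, and with lowest signals of 30.1 to 32.0 in all libraries this number rises as the step falls.

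The DNA just before the start of the principal transcript is shown for 4 genes as examples of different peak patterns, RCOR1 (peaks in NTC libraries and in none of the knockouts), KDM5A (the reverse), HDAC1 (much lower in the knockouts) and KDM5C (weak peaks in NTC libraries alone). Each run is 250 bases of hg19, 5′ to 3′ on the strand of the gene and ending at the base before the start. Capitals mark the SP1 box GGGCGG on either strand. The windows are chr14:103058736-103058985 on the plus strand, chr12:498487-498736 on the minus strand, chr1:32757434-32757683 on the plus strand and chrX:53254390-53254639 on the minus strand.
RCOR1: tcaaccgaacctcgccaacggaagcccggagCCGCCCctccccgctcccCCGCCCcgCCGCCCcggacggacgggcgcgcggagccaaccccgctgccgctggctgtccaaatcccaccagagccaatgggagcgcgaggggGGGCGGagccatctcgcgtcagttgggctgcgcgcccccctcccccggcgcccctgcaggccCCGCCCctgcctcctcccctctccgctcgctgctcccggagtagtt
KDM5A: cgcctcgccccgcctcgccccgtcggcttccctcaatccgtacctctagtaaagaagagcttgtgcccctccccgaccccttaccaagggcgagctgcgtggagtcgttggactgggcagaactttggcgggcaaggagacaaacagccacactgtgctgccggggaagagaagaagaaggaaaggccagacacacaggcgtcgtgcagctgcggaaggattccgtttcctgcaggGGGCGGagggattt
HDAC1: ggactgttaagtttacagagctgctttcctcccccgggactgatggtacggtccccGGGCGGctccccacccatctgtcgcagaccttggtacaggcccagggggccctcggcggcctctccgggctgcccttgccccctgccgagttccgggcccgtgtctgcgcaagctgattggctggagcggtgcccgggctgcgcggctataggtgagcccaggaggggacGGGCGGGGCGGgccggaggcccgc
KDM5C: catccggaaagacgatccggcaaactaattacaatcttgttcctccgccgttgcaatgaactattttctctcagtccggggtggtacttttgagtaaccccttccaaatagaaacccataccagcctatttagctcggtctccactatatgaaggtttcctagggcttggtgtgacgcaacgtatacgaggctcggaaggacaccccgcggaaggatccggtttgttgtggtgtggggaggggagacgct

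In these promoters, searched on both strands from 250 bases before to 50 bases after the start, RCOR1 and HDAC1 each held 6 SP1 boxes, some overlapping, KDM5A held 1 and KDM5C none. Among the others KDM1B held 4, KDM5B 3, KDM1A 1 and HDAC2 none. An SP1 box was present in 61.5% of the 19862 promoters of protein-coding genes and in 6 of these 8. KDM5A was the one gene with an ETS motif (CCGGAAG, in 14.2% of promoters), and KDM5C the one with a YY1 motif (AAGATGGC, in 4.06%). Both lie past the printed bases. None held the NRF1 motif, a TATA box (TATAAA) or a GATA site (AGATAA). The shares over all promoters were 1.70%, 9.63% and 7.16%. The windows held 20 CpG in KDM5A, 22 in KDM5C, 24 in HDAC2, 28 in HDAC1, 34 in KDM5B, 35 in RCOR1, 36 in KDM1A and 39 in KDM1B, against a median of 23 over all promoters and of 28 over those of genes with a peak in all 3 NTC libraries. The matches describe letters in these windows and nothing about binding.

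H3K4me3 peaks were listed at 6, 5 and 4 of the 8 genes in NTC replicates 1, 2 and 3. They were listed at 5 genes in each METTL3-KO library, at 3 and 1 in METTL14-KO replicates 1 and 2, and at 1 in each WTAP-KO library. The 8 genes did not lose their peaks together. KDM1B, KDM5C and RCOR1 had peaks in every NTC library and in no knockout, HDAC1 was low or absent in the knockouts, KDM1A and HDAC2 varied among the NTC libraries, and KDM5A and KDM5B had peaks within 1 kb of a start in knockout libraries alone.

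**Figure D1:**
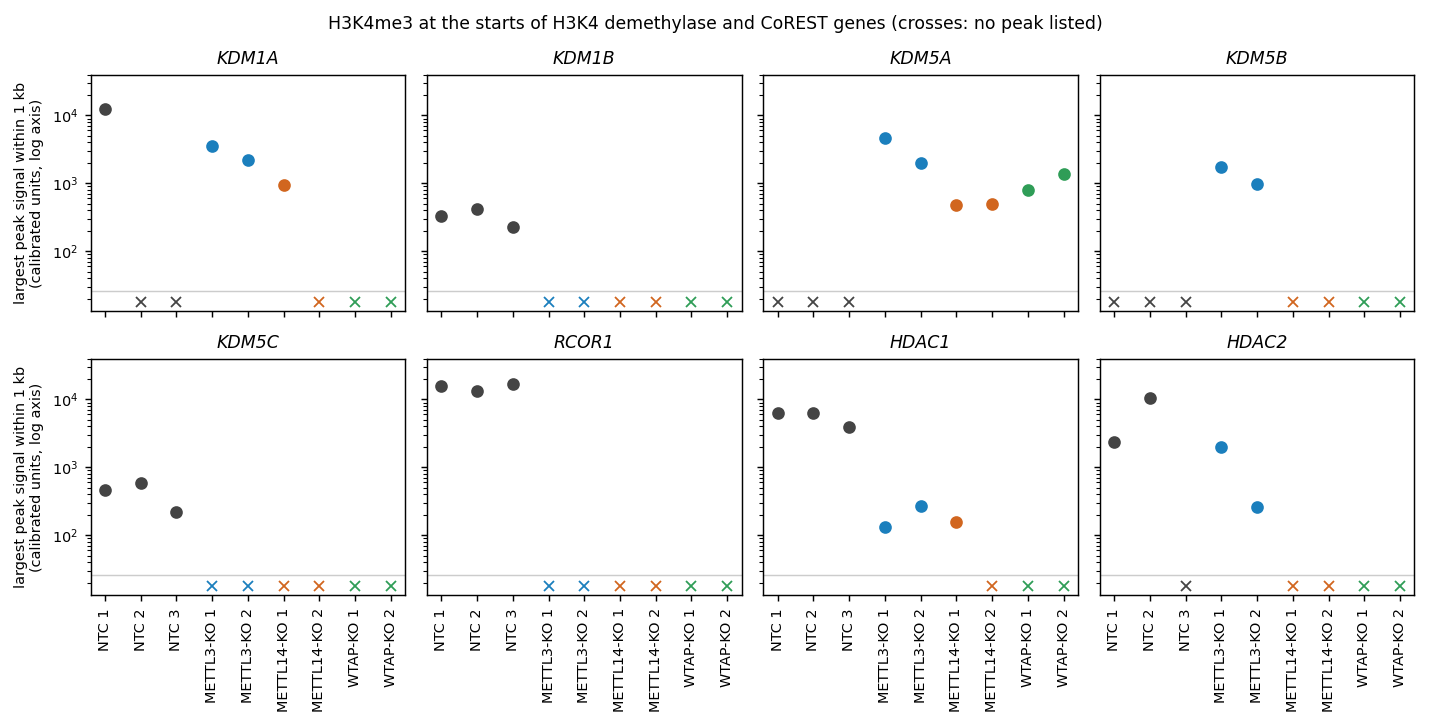
Largest H3K4me3 peak signal within 1 kb of a start (calibrated units, log axis) for each of the 8 genes in each of the 9 libraries, with 1 point per library, black for NTC, blue for METTL3-KO, orange for METTL14-KO and green for WTAP-KO, and a cross where no peak was listed. RCOR1 sits between 13141 and 16884 in the 3 NTC libraries with crosses in all 6 knockouts, and KDM5A shows the opposite arrangement.

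Differences between groups were tested with limma on log2(signal + 30.1) over the 12037 protein-coding genes with a peak in at least 2 libraries, with Benjamini-Hochberg adjustment over all of them. In all 6 knockout libraries against NTC, 4 of the 8 genes passed at an adjusted p under 0.05 as lower and 2 as higher, where 73% of all tested genes passed as lower and 14.3% as higher. Of the 4 lower genes, KDM1B, KDM5C and RCOR1 entered the test through NTC libraries alone, and both higher genes entered through knockout libraries alone, so for these 5 the direction was fixed once they passed the filter. The median fitted difference was -3.45 over the 8 genes and -5.30 over all tested genes. Where a group has no peak the size of the fitted difference is set by the pseudocount of 30.1, so that it ranks nothing and bounds nothing.

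For METTL3-KO alone 4 genes passed as lower and 2 as higher, beside 60.9% and 14% of all tested genes. For METTL14-KO it was 4 and 1, beside 68.8% and 8.38%, and for WTAP-KO 4 and 1, beside 69.7% and 6.81%. The 4 lower genes were KDM1B, KDM5C, RCOR1 and HDAC1 in each comparison. The 3 comparisons share their NTC libraries. METTL3-KO was also set against METTL14-KO and WTAP-KO together. In this comparison none of the 8 genes was lower and 2 were higher, KDM5A and KDM5B, where 0.582% and 29.5% of all tested genes passed. KDM5B entered the test through the METTL3-KO libraries alone, so that its direction was fixed here too.

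RCOR1, the scaffold that joins KDM1A to the deacetylases, carried the highest signal of the 8 in every NTC library. Its largest peak had a signal of 15652, 13141 and 16884 in NTC replicates 1, 2 and 3. No peak was listed within 5 kb of its starts in any of the 6 knockout libraries. The 3 NTC values lie above the 94th percentile of their own lists and do not overlap with the knockouts. limma gave a fitted difference of -8.98 (SE 0.13, adjusted p = 1.3e-08). The exact permutation test gave a two-sided p = 0.0238, the smallest it can give. RCOR1 entered the test through NTC libraries alone, which fixed its direction. In NTC the strongest peaks lay in an intron, beginning 842 to 989 bp after the start at chr14:103058986. A weaker set of 3469 to 5084 lay upstream, ending 245 to 489 bp before the start, and no listed peak covered the start itself.

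HDAC1, one of the pair of class I deacetylases in the complex, fell in all 3 knockouts. Its signal was 6311, 6293 and 3931 in NTC replicates 1 to 3, with a mean of 5512 ± 1369 (SD, n = 3). In METTL3-KO it was 132.7 and 265.9, and in METTL14-KO replicate 1 it was 158.0. METTL14-KO replicate 2 and both WTAP-KO libraries listed no peak. Every knockout value lay below every NTC value, and the METTL3-KO mean was 3.62% of the NTC mean. The fitted difference was -4.62 (SE 0.77) for METTL3-KO with an adjusted p = 0.00162 by limma, -6.17 (SE 0.77) for METTL14-KO with 0.000338 and -7.49 (SE 0.77) for WTAP-KO with 0.000119. METTL3-KO did not pass against the other knockouts (2.21, SE 0.73, adjusted p = 0.0694). In NTC the peaks covered the start at chr1:32757684 and reached 954 to 1137 bp into the gene, from the first exon on, and were 1758 bp wide in replicate 2. In the knockouts what was listed was 151 to 295 bp wide and lay within 234 bp of the start. A further NTC peak of 1293 to 2121 lay past the end of the principal transcript and 586 to 597 bp from the start of MARCKSL1.

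HDAC2, the other deacetylase, differed from HDAC1 in how its NTC libraries compared with each other. Its signal was 2344 in NTC replicate 1 and 10650 in replicate 2, and replicate 3 listed no peak. In METTL3-KO it was 1985 and 258.4, and METTL14-KO and WTAP-KO had none. NTC and knockout libraries overlapped, since 1 NTC library had none. The fitted difference over all knockouts was -3.37 (SE 1.86) with an adjusted p = 0.130 by limma. With single libraries left out it ran from -5.83 to -1.60. The value of -5.83 (adjusted p = 0.00243 by limma) came without NTC replicate 3, the NTC library that listed no peak. The peak of NTC replicate 2 covered the start at chr6:114292312 and was 1959 bp wide, close to the 2000 bp above which no list holds a peak. In NTC replicate 1 the upstream peak alone was listed. The METTL3-KO peaks were 417 and 642 bp wide and lay in an intron, in bases that the wide NTC replicate 2 peak covered. The noncoding gene HDAC2-AS2 starts within 1 kb.

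KDM1A, the mono- and dimethyl-H3K4 demethylase at the centre of CoREST, had a peak in 1 of 3 NTC libraries. In NTC replicate 1 its signal was 12531, and replicates 2 and 3 listed nothing within 5 kb. METTL3-KO had 3505 and 2230, METTL14-KO replicate 1 had 946.9, and METTL14-KO replicate 2 and both WTAP-KO libraries had none. NTC and knockouts overlapped and no comparison with NTC passed, with a fitted difference over all knockouts of 0.12 (SE 2.27, adjusted p = 0.963 by limma). In NTC replicate 1 a pair of peaks, 1106 and 1451 bp wide, ran from 1005 bp before to 1882 bp after the start at chr1:23345961, a span of 2888 bp. The METTL3-KO peaks spanned 1626 and 1797 bp of the same region, with 1 covering the start in each library. TEX46 starts in the opposite direction beside KDM1A, and the METTL14-KO peak, which ended 94 bp before the KDM1A start, lay over the start of TEX46.

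KDM1B, the second member of the LSD family, was weakly marked. Its signal was 333.0, 420.1 and 227.2 in NTC replicates 1 to 3, at or below the 17.3rd percentile of the peaks in each list. No knockout library listed a peak within 5 kb. The groups did not overlap, and the fitted difference was -3.53 (SE 0.21) with an adjusted p = 5.0e-06 by limma. Its direction was fixed by the filter, which it passed through NTC libraries alone. All 3 NTC libraries had a peak that ended 384 bp before the start at chr6:18155653 and 39 bp from a start of the neighbouring gene TPMT, so that the mark cannot be given to KDM1B rather than to TPMT. Replicate 2 had a further peak inside KDM1B, from 380 to 824 bp after the start.

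KDM5C, the X-linked member of the trimethyl-H3K4 demethylases and a gene of intellectual disability, was also weakly marked in NTC. Its signal was 458.0, 589.8 and 220.4, from peaks that lay between 194 and 721 bp before the start at chrX:53254389. A smaller peak of 63.9 to 229.0 lay at the first exon in every NTC library. No knockout library listed any peak within 5 kb, so that NTC and knockouts did not overlap. The fitted difference was -3.81 (SE 0.30) with an adjusted p = 2.4e-05 by limma, in a direction fixed by the filter. With a peak counted only at or above the median NTC peak signal of 2095, KDM1B and KDM5C had no peak in any library.

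KDM5A, a trimethyl-H3K4 demethylase first known as a partner of the retinoblastoma protein, had peaks in all 6 knockout libraries and in no NTC library, at 1 kb or at 5 kb. Its signal was 4648 and 2027 in METTL3-KO, 485.3 and 502.6 in METTL14-KO and 796.2 and 1352 in WTAP-KO. All 3 NTC libraries listed no peak, so that the groups did not overlap, and the METTL3-KO values were the highest of the 6. The fitted difference over all knockouts was 5.32 (SE 0.32, adjusted p = 6.0e-06 by limma). The exact permutation test gave p = 0.0238, the smallest it can give. KDM5A entered the test through knockout libraries alone, which fixed its direction against NTC. METTL3-KO was higher than the other knockouts by 2.05 on the log2 scale (SE 0.39, adjusted p = 0.00973 by limma), a difference that was 0.48 (adjusted p = 0.435) after libraries were centred on the 665 genes with a peak in all 9 libraries and 1.25 (adjusted p = 0.337) after each library was divided by its step. The main peak of each knockout library lay after the start at chr12:498486, from 57 to 1515 bp into the gene, across the first exon or in an intron. Both METTL3-KO libraries had another peak 154 to 578 bp before it, on the side of CCDC77, which starts in the opposite direction from the same promoter.

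KDM5B, a family member known for its high expression in breast cancer, had peaks within 1 kb of a start in METTL3-KO alone. Its signal was 1764 and 994.2 in METTL3-KO replicates 1 and 2, and the other 7 libraries listed none. KDM5B passed the filter through METTL3-KO libraries alone, which fixed its direction. METTL3-KO did not overlap with NTC, and the fitted difference was 5.49 (SE 0.26, adjusted p = 2.4e-06 by limma). Over all 6 knockouts it was 1.83 with an adjusted p = 0.000157, and the exact permutation test of that difference gave p = 0.833, since 4 of the 6 knockout libraries had no peak. Within 5 kb the picture changed. METTL3-KO had 2955 and 2007, METTL14-KO replicate 1 had 860.2, WTAP-KO replicate 2 had 369.3, and NTC replicates 1 and 3 had 766.0 and 937.4. NTC and the other knockouts overlapped at 5 kb, both METTL3-KO values stood above all others, and METTL3-KO against NTC was 3.11 (SE 2.17, adjusted p = 0.228 by limma). The 2 NTC peaks lay in the gene body, 3842 to 4098 bp after the start at chr1:202777549, whereas the knockout peaks stood upstream or in an intron nearer the start. Peaks of the METTL3-KO libraries flanked the start on both sides over 4870 and 4769 bp and did not cover it.

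**Figure D2:**
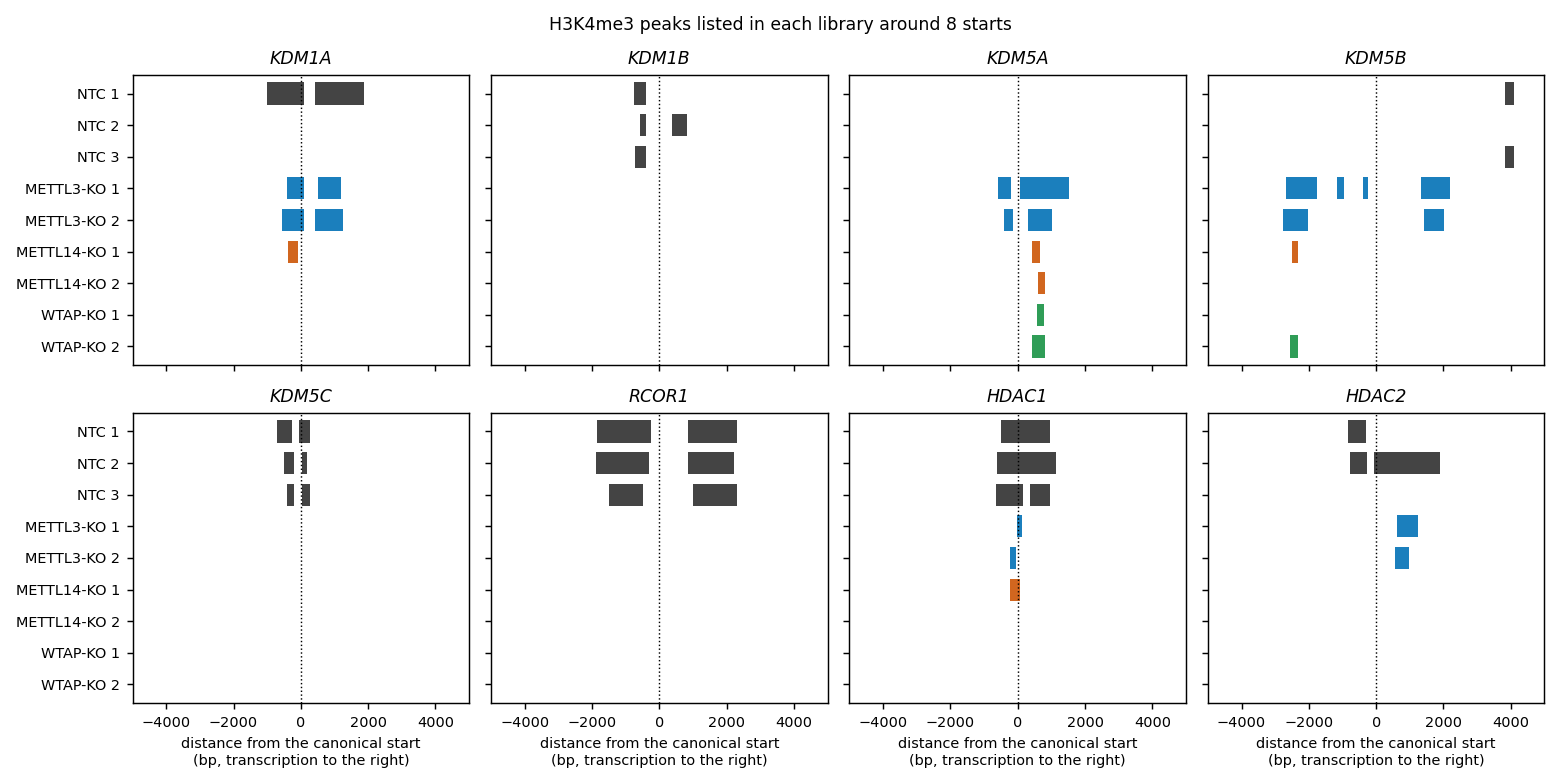
Position of every listed H3K4me3 peak around the start of the principal transcript of each gene, 1 row per library, as distance in bp with transcription to the right and the start at the dotted line, and bars coloured by group as in the plot of signals. Peaks of NTC cover or flank the starts of HDAC1 and RCOR1, at KDM5A peaks appear in the 6 knockout rows alone, and the HDAC1 peaks more than 5000 bp away are not drawn.

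The width of the marked domain was measured over all genes and is given beside these absences. NTC lists held 509 peaks per library of 1801 to 1900 bp and 436 of 1901 to 2000 bp, and then 0 above 2000 bp. Genes were sorted by the span of their METTL3-KO replicate 1 peaks within 1 kb of the principal start. Where that span was 1 to 500 bp, 10.5% of genes had no peak in any NTC library. The share was 21.5% at 501 to 1000 bp, 42.5% at 1001 to 1500 bp, 70.4% at 1501 to 2000 bp, 56% at 2001 to 2500 bp and 51.5% above that. KDM5A, with 2094 bp, and KDM1A, with 1626 bp, fall in ranges where over 50% of genes lacked an NTC peak, although KDM1A had one in NTC replicate 1. KDM5B, with 917 bp and no NTC peak, and HDAC2, with 642 bp, fall in the range where 21.5% lacked one. The 917 bp of KDM5B joins weak upstream peaks of 280.1 and 342.2. Its larger METTL3-KO peaks lay more than 1 kb from the principal start and are not in that span. METTL3-KO replicate 2 had no KDM5B peak within 1 kb of that start. HDAC1, with 151 bp, falls in the lowest range.

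The pattern of KDM5A, a peak in all 6 knockouts and in no NTC library, was shared by 588 of the 20163 genes, or 2.92%. Around the principal start 606 genes had it, with a median METTL3-KO replicate 1 span of 1570 bp, against 957 bp for the 465 genes with a peak in all 9 libraries. Genes with a peak in NTC replicate 1 and in no other NTC library, as KDM1A had, numbered 367 and had a median span there of 1935 bp, against 1395 bp for the 7606 genes with one in every NTC library. For peaks in NTC replicate 2 alone the medians were 1879 and 1410.5 bp, and for replicate 3 alone they ran the other way, 1091 and 1441.5 bp. The part of the width limit in the missing NTC peaks of KDM5A, KDM5B, KDM1A and HDAC2 was not tested, and a gene listed without a peak is not shown to lack H3K4me3.

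**Figure D3:**
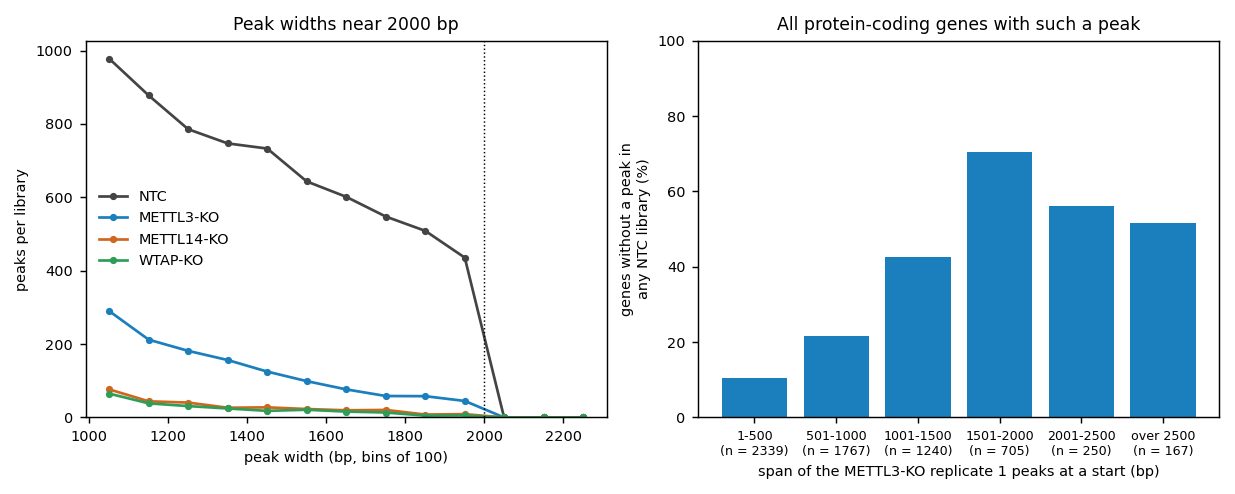
Left, number of peaks per library by width (bp, bins of 100) for the 4 groups, with the dotted line at 2000 bp. Right, share of genes (%) with no peak in any NTC library, by the span of the METTL3-KO replicate 1 peaks at the start. NTC falls from 436 peaks at 1901 to 2000 bp to 0, and the share reaches 70.4% at spans of 1501 to 2000 bp.

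The 8 genes are compared in a single view by the fitted differences. HDAC1 is the one gene that passed with a measured level on both sides, in METTL3-KO and METTL14-KO. KDM1A and HDAC2 have errors of 1.86 to 2.93 on the log2 scale, against 0.13 to 0.77 for the others, in the comparisons with NTC. For KDM1B, KDM5A, KDM5B, KDM5C and RCOR1, whole groups without a peak take the same value in each library and add no spread. Their smaller errors therefore do not show a more precise measurement.

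**Figure D4:**
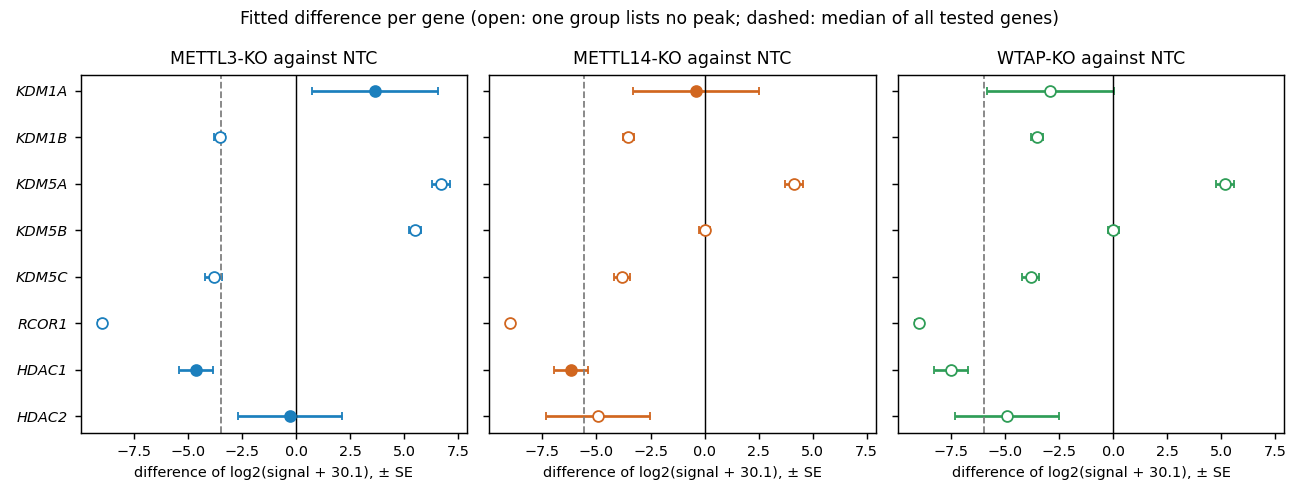
Fitted difference of log2(signal + 30.1) from NTC with its standard error for each gene, in 1 panel per knockout, with open points where a group lists no peak and a dashed line at the median of all tested genes. KDM5A lies right of 0 in all 3 panels, KDM5B in that of METTL3-KO alone, and the error bars of KDM1A and HDAC2 span several units.

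The named genes stand beside the partners of their complexes. Of 15 further genes of the LSD1-CoREST machinery, 14 had a peak in all 3 NTC libraries and 14 passed as lower over all knockouts, none as higher, beside 73% and 14.3% of all tested genes. The median was -6.49 against -5.30 over all tested genes. Of the 15 genes, 7 entered the test through NTC libraries alone, which fixed their direction. ZMYM2 was the exception on both counts, with a peak in 2 NTC libraries. Both recruiting repressors passed as lower over all knockouts, and GFI1B did not pass in METTL3-KO (-1.99, SE 1.08, adjusted p = 0.135 by limma). GFI1 had an NTC mean of 10312 ± 338 (SD, n = 3) and a single knockout peak of 619.4 in METTL3-KO. GFI1B had 3141 ± 1379 in NTC and at most 2783 in the knockouts. RCOR2 and RCOR3, the paralogs of RCOR1, had NTC means of 3298 ± 710 and 5279 ± 330 and no peak in any knockout, as RCOR1 had none. In METTL3-KO against the other knockouts 4 of the 15 passed as higher, beside 29.5% of all tested genes, among them ZNF217, ZMYM3 and GFI1B. The 15 genes had no member with a peak in all 9 libraries and none without an NTC peak.

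Of 17 KDM5 and SIN3 partners, 10 passed as lower and 4 as higher over all knockouts, beside 73% and 14.3% of all tested genes, with a median of -4.09 against -5.30. In METTL3-KO 6 passed as lower and 4 as higher, beside 60.9% and 14%. The direction was fixed by the filter for 2 genes with peaks in NTC alone and for the 4 higher over all knockouts, which had peaks in knockouts alone. Those 4 were SAP30, ING1, RBBP4 and EMSY, subunits or ligands of SIN3 or KDM5 assemblies, and none of them had a peak in any NTC library, as at KDM5A. Their mean signals over the 6 knockouts were 4150 ± 4062 for SAP30, 4034 ± 4483 for ING1, 1939 ± 1838 for RBBP4 and 2858 ± 2397 for EMSY (SD, n = 6), and EMSY lacked a peak in 1 METTL3-KO library. PHF12 and MORF4L1 had peaks in all 9 libraries. MORF4L1, a chromodomain reader of the SIN3B complex, had 1128 ± 362 in NTC (SD, n = 3) and 2605 ± 2120 in the knockouts (SD, n = 6) and passed as higher in METTL3-KO alone. In METTL3-KO against the other knockouts 11 of the 17 passed as higher, beside 29.5% of all tested genes, namely SAP30, SAP30L, SUDS3, BRMS1, ARID4A, ARID4B, ING1, RBBP4, PHF12, MORF4L1 and GATAD1.

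Of 9 subunits of NuRD, the other deacetylase complex of HDAC1 and HDAC2, 8 were tested, 7 passed as lower and none as higher over all knockouts, beside 73% and 14.3% of all tested genes, with a median of -5.84 against -5.30. CHD4, MTA2, MTA3, MBD2 and MBD3 entered the test through NTC libraries alone, which fixed the direction of these 5. MTA1 had no peak in any library. None of the 9 had a peak in METTL14-KO or WTAP-KO. RBBP4 and RBBP7, which NuRD shares with SIN3, were counted with the SIN3 partners and not here. RBBP4 had peaks in every knockout library and in no NTC library, and RBBP7 in NTC libraries alone. In METTL3-KO against the other knockouts 2 of the 8 tested passed as higher, GATAD2A and GATAD2B, beside 29.5% of all tested genes. The genes of these lists differ in number and were chosen by name, and the counts are descriptions.

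**Figure D5:**
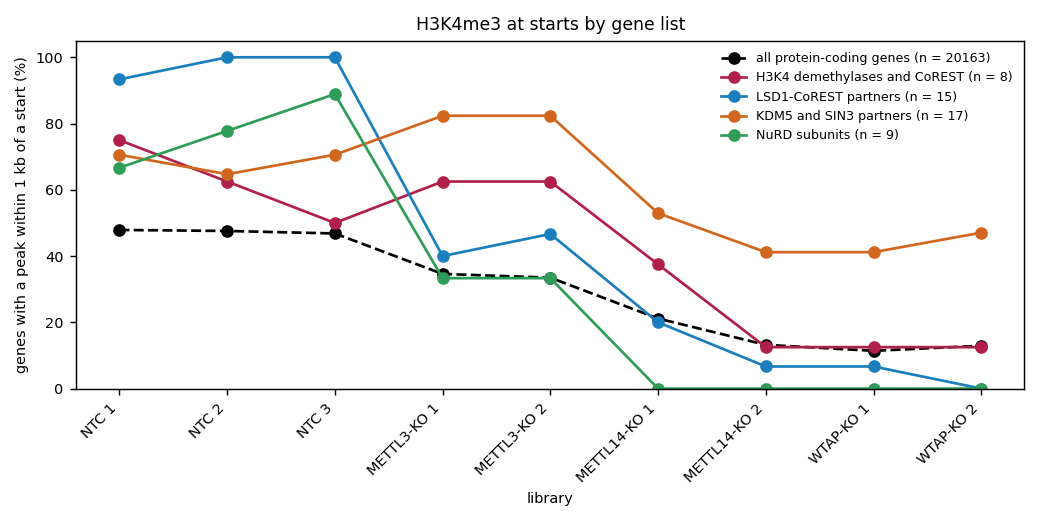
Share of genes (%) with an H3K4me3 peak within 1 kb of a start in each of the 9 libraries, for the 8 genes, for the 3 lists of complex partners and for all protein-coding genes (dashed). The KDM5 and SIN3 partners stay at 41.2% to 52.9% in METTL14-KO and WTAP-KO. There the listed NuRD subunits, without RBBP4 and RBBP7, are at 0.

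Of the 8495 genes with a peak in all 3 NTC libraries, 45.8% had none in any knockout. Of the 4 among the 8 genes with that start, KDM1B, KDM5C and RCOR1 had none in any knockout, and HDAC1 kept a peak in 3 of 6. The gene whose signal ran most like that of KDM5A over the 9 libraries was ABHD5 (Pearson r = 0.996 of log2(signal + 30.1)), and for HDAC1 it was GZF1 (r = 0.995). These are the highest of many correlations over 9 libraries in 4 groups, given as a description.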

How the data were processed

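H3K4me3 CUT&RUN was measured in 9 libraries of HEL cells, grouped by the sample titles. The authors aligned paired-end reads of 50 bp with Bowtie to hg19 and to sacCer3 for a yeast spike-in that set the calibration. Duplicates were removed with Picard and peaks were called per library (versions not given in the sources used here). The deposited lists hold a position and a signal, a calibrated coverage sum. A shared calibration scales both the values and the height needed for a call. Counting of peak starts from 0 was assumed.

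Each protein-coding gene of GENCODE 44 on hg19 was given its largest signal within 1 kb of any start, and 0 without a peak. The unit is a signal and not a count, so limma 3.58.1 (R 4.3.3; trend, all 4 groups in 1 fit) was used on log2(signal + 30.1), where the pseudocount is the lowest signal of any gene, over the 12037 genes with a peak in at least 2 libraries, with an adjusted p under 0.05. Single genes were also tested by an exact permutation test over the 84 assignments of the libraries. The fit was tested on simulated data with normal errors. These held no group in which every library lacked a peak, so that the test does not cover genes with such a group. Sequences were read from the hg19 reference with pysam 0.24.0.

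The 8 genes, the lists of partners and markers and the tests were chosen with earlier results of these data known. All 8 genes are named. Of the lists, those with a peak in all 9 libraries, those without an NTC peak and those higher in a knockout comparison are named. GFI1, RCOR2, RCOR3, ZMYM2, CHD4, MTA2, MTA3, MBD2, MBD3 and RBBP7 were named after their values were seen. Some genes of the lists are not reported here by name. Alternatives were the 5 kb window, other pseudocounts, filters, scalings and peak thresholds, summed peaks, other starts and gene types, the compared groups alone, a replicate block and each library left out.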

Additional observations from a re-analysis of the deposited data

Results flagged for a closer look

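Of the 8 genes, 2 differed between the knockout groups in the test of METTL3-KO against METTL14-KO and WTAP-KO. KDM5B was higher in METTL3-KO by 5.49 on the log2(signal + 30.1) scale (limma, adjusted p = 3.1e-05), a size set by the pseudocount, since the other 4 knockout libraries listed no peak within 1 kb. KDM5B entered the test through the METTL3-KO libraries alone, so that its direction was fixed by the filter. Within 5 kb the difference was 4.20 (adjusted p = 0.194). KDM5A was higher in METTL3-KO by 2.05 (limma, adjusted p = 0.00973), with peaks in all 6 knockout libraries. In the same comparison 29.5% of all tested genes were higher. Groups of 2 and 3 libraries were too small to look for a library that stands apart within a group.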

How the results depend on the processing

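Of 832 values for single genes under other settings, 793 stayed on the same side of the threshold without a change of sign. A difference of 0 counted as no change of sign, as for KDM5B in METTL14-KO and WTAP-KO. It was 0 for KDM1B, KDM5C and RCOR1 in METTL3-KO against the other knockouts, which listed no peak there. Of the rest, 15 passed only under the alternative, 7 no longer passed and 17 changed direction, all 17 of KDM1A or HDAC2, which no comparison called. KDM1B, KDM5C and RCOR1 had peaks in NTC libraries alone, so that their direction against NTC was fixed under every setting that tested them. With a peak in at least 4 libraries 5675, 4532, 5404 and 5319 genes were called for all knockouts, METTL3-KO, METTL14-KO and WTAP-KO, and 2 of the 8 genes in each, since 4 were tested. With peaks no lower than the NTC median signal 6127 and 6099 of 8692 tested genes were called for METTL14-KO and WTAP-KO, and 7811 over all knockouts. Of the 8 genes 4 were tested, and 3 were called over all knockouts and 2 in each knockout. Then 3 genes had a peak per NTC library, 1.5 in METTL3-KO and 0 in METTL14-KO and WTAP-KO. With 5 kb it was 1.5 in WTAP-KO. In METTL3-KO against the other knockouts, the genes called were 2280 after centring, 2082 after division by the step and 888 with the stricter peaks. Of the 8 genes 1 was called with 5 kb, centring, division or the block. With stricter peaks 4 of the 8 were tested and 0 called, where 841 of 8692 tested genes passed as higher. With the compared groups alone 5 of the 8 were tested and 4 called as higher, where 3869 of 6429 tested genes passed as higher. Centring moved the median difference of all genes from -5.30 to -3.44.

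KDM1A over all knockouts turned to -0.34 with 10 times the pseudocount, -0.72 with stricter peaks and -1.33 with the replicate block. In METTL14-KO it turned to 0.14 with 0.1 times the pseudocount, 0.59 after centring and 0.37 after division. HDAC2 in METTL3-KO turned to 0.77, 0.81 and 0.60 under those 3 settings. The cause was not tested. Without 1 library, KDM1A ran from -1.33 to 3.02 over all knockouts and from -2.90 to 2.51 in METTL14-KO, and HDAC2 from -2.72 to 1.51 in METTL3-KO. Without 1 library the genes called in METTL3-KO against the other knockouts ran from 2389, without METTL3-KO replicate 1, to 4378, and of the 8 genes from 1, without either METTL3-KO library because KDM5B then fell below the filter, to 3. KDM1A passed as higher in METTL3-KO without NTC replicate 1 (6.55, adjusted p = 0.0147).

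No pairing of the libraries by replicate number was seen, which does not show that they were unpaired. Over 12 same-numbered pairs the correlation of deviations was 0.00586 on average and between -0.0578 and 0.0950. In groups of 2 libraries the deviations mirror each other, so that these correlations are not all independent. With the replicate number as a block, which drops NTC replicate 3 from the contrast, 10002 genes were called over all knockouts against 10499, and 7 of the 8 genes against 6. HDAC2 passed (-5.83, adjusted p = 0.00755) and KDM5A in METTL3-KO against the other knockouts did not (adjusted p = 0.0507). Depth is unknown, and 2 or 3 libraries per group limit the precision.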
